A study of Mus musculus with 14 samples.

Results

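The 31 genes described here make, take up or export cholesterol, or control those steps, and they were followed in the 3T3-L1 line of mouse preadipocytes, fibroblast-like cells that become fat cells under a mixture of hormones. The genes were chosen by name from the pathway, and a gene was read from probe sets that carry its symbol and no other. In all, 28 of the 31 genes had such a probe set, of 18193 genes on the array, and none of the 60 probe sets of the listed genes belonged to Acat2, Soat1 or Nr1h2. Where a gene had several, the probe set with the highest mean over all arrays was used. The SETD5 arm carried a retrovirus that expresses V5-tagged SETD5, a SET domain protein that works with corepressors of transcription, from a weak promoter, and the Empty arm carried an empty control virus. Each arm is a line selected after transduction, so SETD5 and any other difference between the lines cannot be told apart. Insulin, dexamethasone and isobutylmethylxanthine were given to confluent cells of both arms at 0 h, and insulin alone was given after 48 h. Messenger RNA was measured on 14 arrays, 1 for each arm at 0, 12, 24, 36, 48, 96 and 192 h, so no hour had a replicate.

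Cells make cholesterol from acetyl-CoA by way of mevalonate, farnesyl diphosphate, squalene and lanosterol. SREBP2, encoded by Srebf2, and SREBP1, encoded by Srebf1, are membrane-bound transcription factors that SCAP escorts to the Golgi for cleavage when sterols are scarce, and the INSIG proteins hold SCAP back when sterols are plentiful. When sterols accumulate, oxysterols instead activate the liver X receptors, which turn on export pumps such as ABCA1. In fat cells much of the free cholesterol is stored in the lipid droplet membrane and the plasma membrane, and SREBP1 is also known there for its control of fatty acid synthesis.

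Values are linear array intensities, which the authors had scaled to the same trimmed mean on every array. Differences between arms are log2 of the intensity plus 16, SETD5 minus Empty at the same hour, so that folds of low genes are understated. A gene was tested if 3 or more of the 14 arrays gave it an intensity of at least 50, and 8682 genes met this, among them 25 of the 28. All 25 reached 50 on 3 or more Empty arrays and 24 of them on 3 or more SETD5 arrays, Mvk being the exception. Mvk thus passed only through the arm in which it was higher, so counts are also given without it. Tests were limma's, called at a Benjamini-Hochberg adjusted p under 0.05 over all 8682 genes, with hours in the place of replicates, and ± marks the standard error (SE) from that fit. The median intensity of tested genes was 188 to 207.5 over the arrays. Fat cell markers were present in both arms at 192 h, and no macrophage or endothelial marker passed the filter. The Setd5 probe set averaged 302 in the SETD5 arm and 309 in the Empty arm (log2 difference -0.03 ± 0.06, 7 hours, adjusted p = 0.788), and the sources used here do not say whether it reads the viral transcript.

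The arms were close to each other for these genes through 48 h and apart at 192 h. Over the 25 tested genes the median SETD5 minus Empty difference ran through -0.09, -0.01, 0.07, 0.12, -0.05, -0.66 and -1.65 over the 7 hours in order. Over all 8682 genes the medians at those hours lay between -0.0031 and 0.12. No listed gene was over 2-fold apart through 48 h, against 0.0576%, 0.0691%, 0.23%, 0.23% and 0.415% of all tested genes that were lower with SETD5 by that much at 0, 12, 24, 36 and 48 h and 0.023%, 0.104%, 0.138%, 0.15% and 0.461% that were higher. At 96 h 5 of the 25 genes were over 2-fold lower in the SETD5 arm, against 1.67% of all tested genes, and at 192 h 20 of 25 were (19 of 24 without Mvk), against 4.52% of all tested genes. None was over 2-fold higher at either hour, against 0.714% and 2.63%. These counts rest on 1 pair of arrays each and carry no test.

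**Figure D1:**
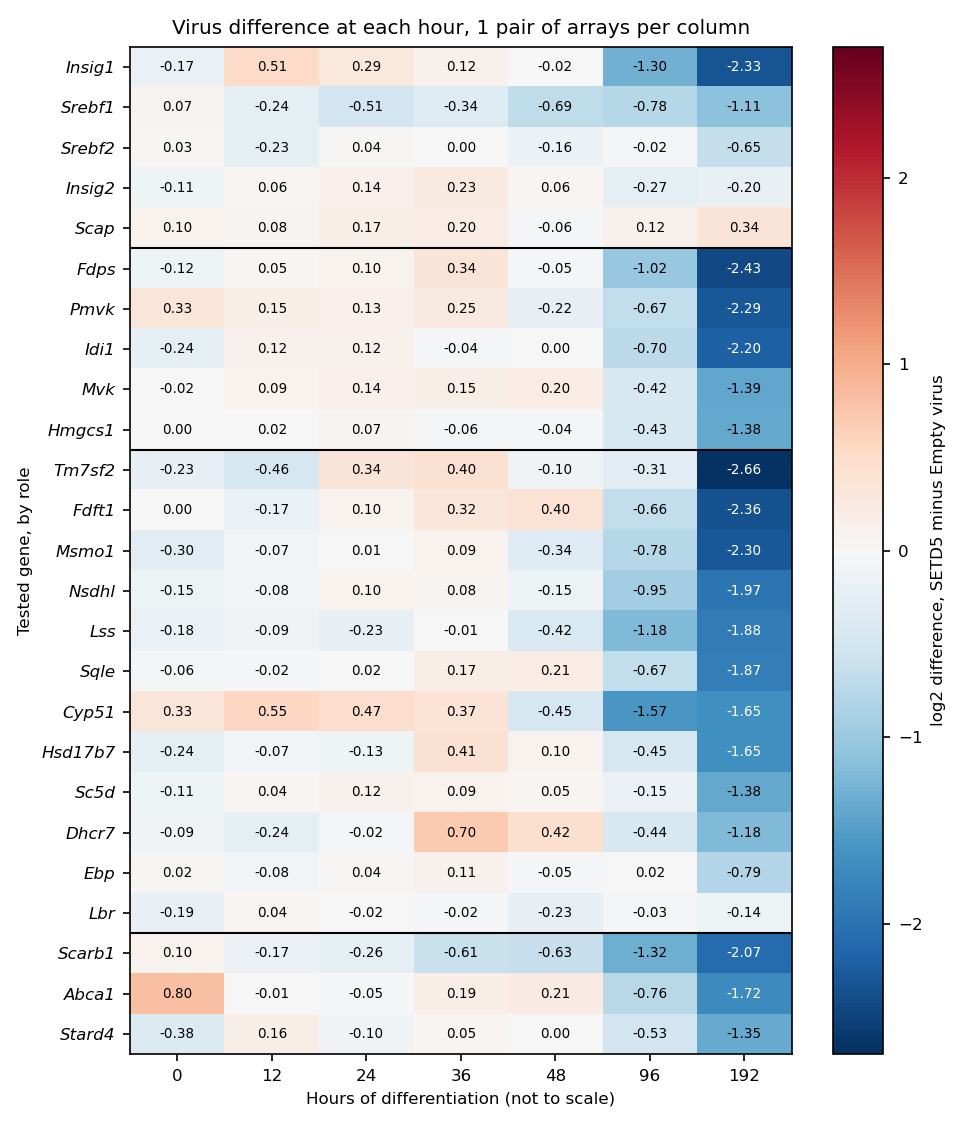
The log2 difference in intensity plus 16, SETD5 minus Empty virus, of the 25 tested genes (rows, grouped from top to bottom as regulators, mevalonate and isoprenoid steps, squalene to cholesterol steps, and transport) at each of the 7 hours (columns), each cell being 1 pair of arrays. Cells are pale through 48 h and blue, meaning lower with SETD5, in 23 rows at 96 h and 24 rows at 192 h.

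At 192 h the SETD5 minus Empty difference was called lower than at the other hours for 18 of the 25 genes (17 of 24 without Mvk), and called higher for none. The median change between 96 h and 192 h was -0.05 in the SETD5 arm and 0.91 in the Empty arm, so most of the widening was on the Empty side. The quantity tested was the arm difference at 192 h minus the mean arm difference of the other 6 hours, and 4.32% of all tested genes were called lower and 3.39% higher. It was negative for 24 of the 25 genes, with a median of -1.59 against 0.09 over all tested genes. The value farthest below 0 was that of Tm7sf2, at -2.60 ± 0.30 (adjusted p = 0.00578), and the one nearest to 0 among the called genes was that of Ebp, at -0.80 ± 0.15 (adjusted p = 0.0164). The 7 genes not called were Cyp51 at -1.60 ± 0.65, Dhcr7 at -1.24 ± 0.35, Srebf1 at -0.69 ± 0.28, Srebf2 at -0.59 ± 0.16, Insig2 at -0.22 ± 0.20, Lbr at -0.07 ± 0.16 and Scap at 0.24 ± 0.15. The hour was singled out with its values known and has 1 pair of arrays, which the model assumes to vary like the other pairs. Without pairing the arrays by hour, none of the 25 genes was called, nor any of the 8682.

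**Figure D2:**
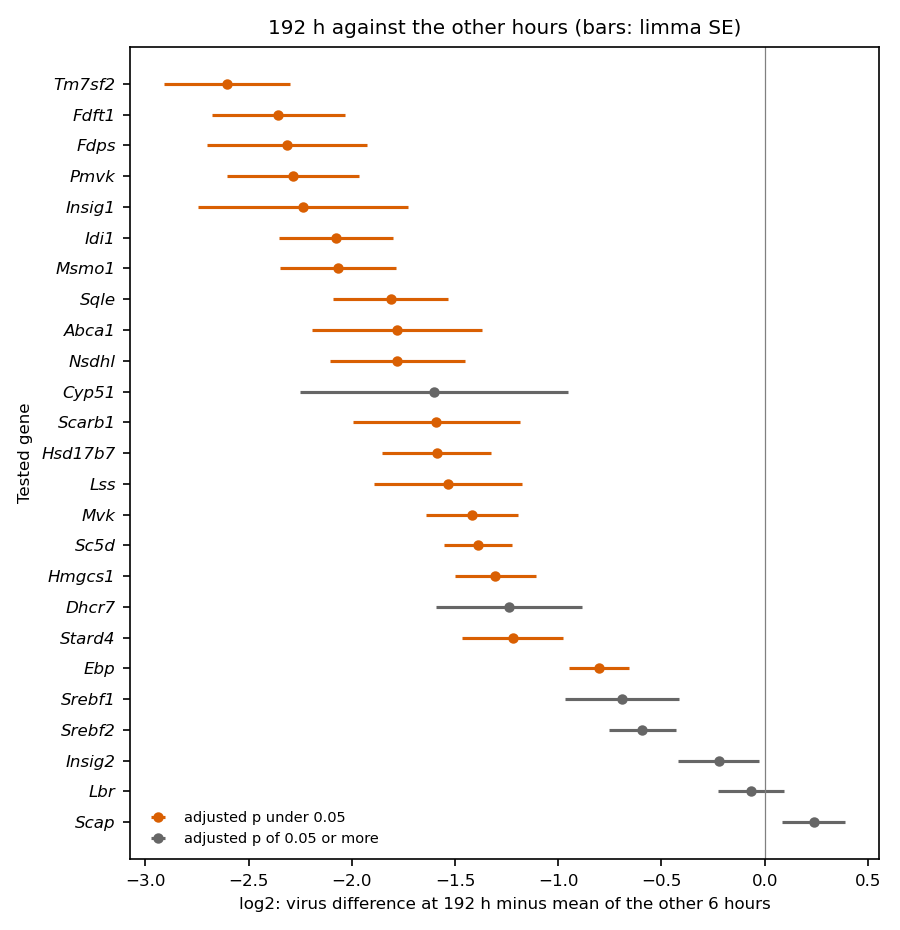
The arm difference at 192 h minus the mean of the other 6 hours (horizontal axis, log2) for the 25 tested genes (rows), with points for limma's estimates and bars for 1 SE on each side. All but Scap lie left of 0, and Tm7sf2 lies farthest left at -2.60.

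The mevalonate steps, which build the isoprenoid units, shared this pattern. All 5 tested genes were over 2-fold lower in the SETD5 arm at 192 h and all 5 were called in the 192 h test, where their median was -2.07 (4 of 4 and -2.18 without Mvk). Fdps, the farnesyl diphosphate synthase, gave 533, 295, 281, 262, 189, 229.7 and 238 in the SETD5 arm at the 7 hours in order, against 581, 284, 260.1, 203, 197, 482 and 1351 in the Empty arm. The arms stayed together through 48 h, and the Empty array at 192 h was above every other array of either arm. The difference at 192 h was -2.43, a 5.39-fold lower value in the SETD5 arm, and the 192 h test gave -2.32 ± 0.39 (adjusted p = 0.0109).

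Idi1, the isopentenyl diphosphate isomerase, gave 619.7, 743, 626, 431, 381, 351 and 349 in the SETD5 arm, against 736, 684, 574, 442, 379.7, 581 and 1659 in the Empty arm. The SETD5 arm was lowest at its last hour and the Empty arm highest at its last hour. At 192 h the difference was -2.20, or 4.59-fold, and the 192 h test gave -2.07 ± 0.28 (adjusted p = 0.00747). Pmvk, the phosphomevalonate kinase, differed in its early course, with 115, 381, 155, 153, 76.5, 84.3 and 68.1 in the SETD5 arm against 88.3, 340.4, 140.1, 127, 91.4, 143 and 395 in the Empty arm. Both arms had a peak at 12 h, and only the Empty arm came back to that level at 192 h, where the difference was -2.29 and the 192 h test gave -2.29 ± 0.32 (adjusted p = 0.00775).

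Hmgcs1, which makes the substrate of the rate-limiting reductase, had 1069 in the SETD5 arm and 2805 in the Empty arm at 192 h, a difference of -1.38. Mvk, the mevalonate kinase, was dim, with 32.2 in the SETD5 arm and 110.7 in the Empty arm at that hour and a difference of -1.39, so that its fold depends in part on the offset. Mvk reached 50 on 1 SETD5 array and 3 Empty arrays, and its value in the 192 h test is therefore a description only. For Hmgcs1 the 192 h test gave -1.30 ± 0.20 (adjusted p = 0.00795). With all probe sets tested singly, other probe sets of Hmgcs1 gave -1.48 and -1.46 in that test, both called, and -0.92, not called. Mvd, the decarboxylase of the same route, did not pass the filter. It had 28.7 in the SETD5 arm and 108.8 in the Empty arm at 192 h, and it stayed below 50 on all SETD5 arrays.

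From squalene to cholesterol, 10 of 12 tested genes were over 2-fold lower in the SETD5 arm at 192 h, and 9 of 12 were called in the 192 h test with a median of -1.60. Fdft1, the squalene synthase, gave 822, 336, 549.5, 484, 299, 374 and 393 in the SETD5 arm, against 822, 380.1, 513, 385, 224, 601 and 2081 in the Empty arm. At 48 h the SETD5 array was the higher one, and at 192 h the Empty array exceeded all others. The difference at 192 h was -2.36, or 5.13-fold, and the 192 h test gave -2.36 ± 0.32 (adjusted p = 0.00747).

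Lss, which closes squalene epoxide into lanosterol, gave 139, 98.3, 91.3, 96.7, 70.9, 77.4 and 79.7 in the SETD5 arm, against 159, 106, 109.5, 97.2, 99.9, 196 and 337 in the Empty arm. The SETD5 array was the lower one at all 7 hours, and the gap was widest at 96 h and 192 h. The arm difference at 192 h was -1.88, and the 192 h test gave -1.54 ± 0.36 (adjusted p = 0.0348). This call was lost when all probe sets were tested singly (adjusted p = 0.0502) and without any 1 of the hours through 48 h (adjusted p = 0.0533 to 0.0644), and a dimmer probe set of Lss had 49.4 in the SETD5 arm and 59.7 in the Empty arm at 192 h.

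Msmo1, which oxidises the methyl groups of early sterols, gave 893, 455, 408, 449, 336, 491 and 457 in the SETD5 arm, against 1103, 477, 405, 419, 431, 853 and 2312 in the Empty arm. Both arms were high at 0 h and low at 12 to 48 h, and only the Empty arm was high again afterwards. Its difference at 192 h was -2.30, or 4.92-fold, and the 192 h test gave -2.07 ± 0.28 (adjusted p = 0.00747).

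Tm7sf2 and Lbr both encode sterol reductases for the same step, and they behaved unlike each other. Tm7sf2 gave 102, 44.1, 62.5, 86.6, 54.5, 69.9 and 71.6 in the SETD5 arm, against 123, 66.6, 46.1, 61.6, 59.8, 90.6 and 539.5 in the Empty arm. A single array, Empty at 192 h, stood far above the other 13, which overlapped between arms. At 192 h its difference was -2.66, or 6.34-fold, which was the largest of the 25 genes. Lbr, which is also the lamin B receptor of the inner nuclear membrane, gave 362, 736, 1026, 574, 483, 402 and 239 in the SETD5 arm, against 416, 714, 1039, 583, 569, 411 and 265 in the Empty arm, with a peak at 24 h in both. Its difference at 192 h was -0.14, and the 192 h test gave -0.07 ± 0.16 (adjusted p = 0.824).

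The other sterol enzymes had intermediate sizes. At 192 h the difference was -1.97 for Nsdhl, -1.87 for Sqle, -1.65 for Hsd17b7, -1.38 for Sc5d and -0.79 for Ebp, and each was called in the 192 h test. Sqle, the squalene epoxidase and a rate-controlling step, had 264 in the SETD5 arm and 1006 in the Empty arm at that hour. Cyp51, the lanosterol demethylase, was at -1.57 by 96 h and at -1.65 at 192 h, with Empty arrays of 433 and 362 at these hours against 136 and 104 in the SETD5 arm, so the 192 h test, which counts 96 h among the other hours, gave -1.60 ± 0.65 (adjusted p = 0.145), and without the 96 h pair it gave -1.91 (adjusted p = 0.00383). Dhcr7, which carries out the final reduction in one branch of the route, was at -1.18 at 192 h and 0.70 at 36 h, so its arms crossed in time (192 h test -1.24 ± 0.35, adjusted p = 0.0595, and -1.34 with adjusted p = 0.0167 without the 96 h pair). A dimmer probe set of Sc5d had 104 in the SETD5 arm and 124 in the Empty arm at 192 h, a difference of -0.22. With all probe sets tested singly, it gave -0.32 in the 192 h test and the dimmer one of Lss -0.02, neither called. A further probe set of Hsd17b7 was called at -1.13 and another, at -0.74, was not. Further probe sets of Fdft1 and Idi1 were called, at -2.28 and -2.19.

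**Figure D3:**
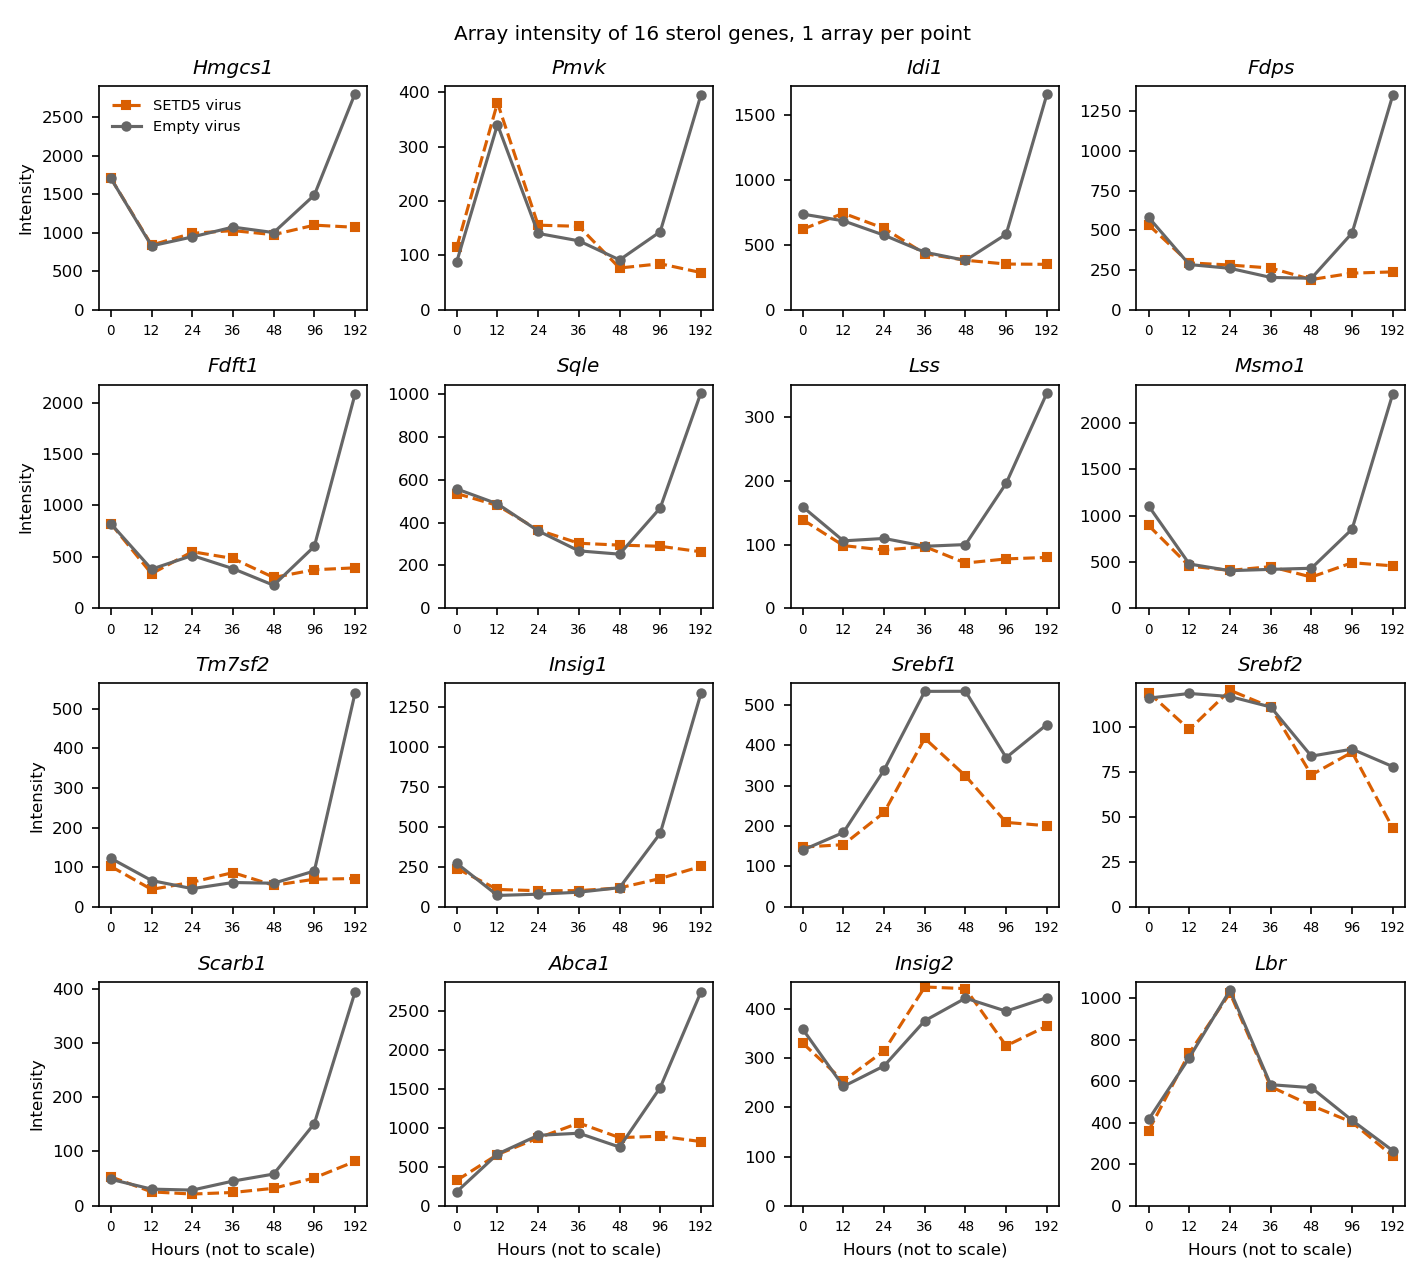
Array intensity (vertical axis, linear, from 0) of 16 of the genes at the 7 hours (horizontal axis, in order and not to scale), with squares for the SETD5 virus and circles for the Empty virus, 1 array per point. The lines overlap through 48 h for most enzymes, and the Empty line climbs at 96 and 192 h while the SETD5 line stays low, as for Fdps at 238 with SETD5 and 1351 with Empty at 192 h.

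Because these enzymes moved together at 192 h, the 300 bases around their annotated start sites were read for the element that SREBPs bind, for the E box, and for the boxes of NF-Y and Sp1, which are known to act beside SREBPs. The reference table (RefSeq, build GRCm38.p6, 250 bases before to 50 after the start) held 20 of the 25 tested genes. Shown are the 5 tested enzymes with a window that had the largest differences at 192 h, and the export pump gene Abca1, 5′ to 3′ on the gene's strand. Capitals mark matches, on either strand, to TCACNCCAC (a sterol regulatory element), CACGTG (an E box), CCAAT (the NF-Y box) and GGGCGG (the Sp1 box), and no match of one overlapped a match of another. The windows lie at chr19:6067801-6068100 for Tm7sf2, chr8:64733529-64733828 for Msmo1 and chr4:53159846-53160145 for Abca1, on the minus strand, and at chr3:89454291-89454590 for Pmvk, chr13:8885356-8885655 for Idi1 and chrX:72918271-72918570 for Nsdhl, on the plus strand.
Tm7sf2: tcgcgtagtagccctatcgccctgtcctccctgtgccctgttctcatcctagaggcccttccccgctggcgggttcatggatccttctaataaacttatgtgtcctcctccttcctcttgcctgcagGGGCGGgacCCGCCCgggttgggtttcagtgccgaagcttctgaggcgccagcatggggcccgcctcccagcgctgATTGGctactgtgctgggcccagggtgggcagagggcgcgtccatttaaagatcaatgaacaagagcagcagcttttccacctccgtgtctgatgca
Msmo1: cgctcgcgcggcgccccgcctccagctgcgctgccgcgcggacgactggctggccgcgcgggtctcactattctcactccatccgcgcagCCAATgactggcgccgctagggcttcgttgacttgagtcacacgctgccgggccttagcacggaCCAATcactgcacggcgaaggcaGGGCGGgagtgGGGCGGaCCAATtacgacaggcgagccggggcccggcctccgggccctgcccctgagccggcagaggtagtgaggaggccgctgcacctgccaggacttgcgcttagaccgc
Pmvk: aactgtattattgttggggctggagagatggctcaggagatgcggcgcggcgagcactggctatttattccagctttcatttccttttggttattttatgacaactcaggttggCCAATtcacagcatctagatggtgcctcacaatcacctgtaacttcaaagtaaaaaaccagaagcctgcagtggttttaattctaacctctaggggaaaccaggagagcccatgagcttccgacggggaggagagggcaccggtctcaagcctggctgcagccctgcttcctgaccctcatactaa
Idi1: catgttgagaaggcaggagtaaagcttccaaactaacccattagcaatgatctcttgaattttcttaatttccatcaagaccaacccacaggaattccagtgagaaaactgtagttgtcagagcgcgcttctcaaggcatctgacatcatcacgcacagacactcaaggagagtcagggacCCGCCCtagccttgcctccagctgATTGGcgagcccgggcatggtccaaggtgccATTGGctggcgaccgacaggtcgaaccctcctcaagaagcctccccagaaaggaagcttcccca
Nsdhl: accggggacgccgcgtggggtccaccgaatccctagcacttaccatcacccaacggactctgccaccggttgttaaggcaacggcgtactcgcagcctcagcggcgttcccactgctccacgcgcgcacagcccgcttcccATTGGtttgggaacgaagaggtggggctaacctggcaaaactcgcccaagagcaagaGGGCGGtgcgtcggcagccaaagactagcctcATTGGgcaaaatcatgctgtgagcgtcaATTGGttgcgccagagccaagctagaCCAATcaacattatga
Abca1: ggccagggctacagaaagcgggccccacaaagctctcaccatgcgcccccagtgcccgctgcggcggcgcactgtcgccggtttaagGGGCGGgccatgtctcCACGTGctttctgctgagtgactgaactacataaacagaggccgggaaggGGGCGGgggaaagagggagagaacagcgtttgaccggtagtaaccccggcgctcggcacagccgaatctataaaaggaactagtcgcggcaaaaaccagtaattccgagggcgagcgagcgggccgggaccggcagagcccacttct
Of the 20 windows, 17 held CCAAT, or 85.0%, against 37.4% of all 32851 windows of this length. As many, 17, held GGGCGG, or 85.0%, against 35.7% of all. CACGTG was in 5, or 25.0%, against 7.15% of all. TCACNCCAC was in 1 window, that of Hmgcs1, or 5.0%, against 1.24% of all. Msmo1 had CCAAT 3 times and GGGCGG 2 times. The tested genes without CCAAT were Abca1, Scap and the enzyme gene Dhcr7. Those with CACGTG were Abca1, Scap, Insig1, Hsd17b7 and Sc5d. These matches are letters in a window and not measured binding sites. Lbr and Insig2, which were not called in the 192 h test, held CCAAT 2 and 3 times. The 20 windows are 1 per tested gene. The 32851 include genes that were not tested and several windows for some genes. The shares therefore do not bear on the pattern at 192 h.

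Among the 5 regulators, all tested, Insig1 was called in the 192 h test and the other 4 were not. Insig1, which is itself an SREBP target, gave 240.0, 109, 101, 102, 119, 177 and 253 in the SETD5 arm, against 272, 71.7, 79.5, 92.0, 120.3, 459.7 and 1334 in the Empty arm. Both arms were low at 12 to 48 h, with the SETD5 arm slightly above the Empty arm from 12 to 36 h, and the arms parted at 96 h. The difference at 192 h was -2.33, or 5.02-fold, and the 192 h test gave -2.24 ± 0.51 (adjusted p = 0.0323), a call lost without 0, 24, 36 or 48 h (adjusted p = 0.0533 to 0.0574). Insig2, whose product also retains SCAP, gave 331, 254, 315, 446, 442, 326 and 366 in the SETD5 arm, against 359.6, 243, 285, 377, 423, 396 and 424 in the Empty arm. The arms overlapped in range, and the difference was -0.20 at 192 h.

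Srebf1 gave 148, 154, 234, 417, 324, 209 and 201 in the SETD5 arm, against 141, 184, 339, 533, 533, 369 and 451 in the Empty arm. Both arms were highest at 36 to 48 h, and the SETD5 array was the lower one at 6 of 7 hours, all but 0 h. Its differences at 12, 24 and 36 h were -0.24, -0.51 and -0.34, and those at 48, 96 and 192 h were -0.69, -0.78 and -1.11. Srebf1 was thus lower from 12 h on, with 1 pair of arrays at each hour, while the enzymes' median was still close to 0 at 48 h. Srebf2 gave 119, 98.5, 120.3, 111, 73.3, 85.9 and 43.8 in the SETD5 arm, against 116, 119, 117, 111, 83.7, 87.6 and 77.9 in the Empty arm. The arms overlapped through 96 h and the difference at 192 h was -0.65, with 43.8 in the SETD5 arm being below the filter level. Scap was at 338 in the SETD5 arm and 264 in the Empty arm at 192 h, a difference of 0.34 and the only positive one of the 25 genes.

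The 3 tested transport genes, Scarb1, Abca1 and Stard4, were lower with SETD5 at 192 h as well, and all 3 were called in the 192 h test. For 12 other tested genes of sterol trafficking and lipoprotein uptake the median difference at 192 h was -0.0087. Of these 12, 1 was over 2-fold lower at 192 h, Gramd1b at -1.70, against 4.52% of all tested genes. None of the 12 was called in the 192 h test, and 12 genes are too few to set this apart from the 4.32% of all tested genes called lower. Scarb1, the receptor that takes up cholesterol from high-density lipoprotein, gave 53.1, 25.3, 21.3, 24.2, 31.9, 51.1 and 81.6 in the SETD5 arm, against 48.5, 30.4, 28.6, 45.2, 58.2, 151 and 394 in the Empty arm. The SETD5 array was the lower one at every hour but 0 h, with values below 50 on 4 of its arrays. At 192 h the arms differed by -2.07, and the 192 h test gave -1.59 ± 0.40 (adjusted p = 0.0434), a call that was lost when any 1 of the hours through 48 h was left out (adjusted p = 0.0592 to 0.0766), with quantile normalization (adjusted p = 0.051) and with an offset of 4 (adjusted p = 0.0712). Abca1, the pump that loads cholesterol onto apolipoproteins, gave 324, 656, 868, 1060.2, 873, 891 and 822 in the SETD5 arm, against 179, 662, 902, 929, 752, 1516 and 2743 in the Empty arm. The SETD5 array was above the Empty array at 0 h, the arms were close at 12 to 48 h, and the Empty arm was higher from 96 h on. The difference at 192 h was -1.72, and the 192 h test gave -1.78 ± 0.41 (adjusted p = 0.0337), a call lost without 12, 24, 36 or 48 h (adjusted p = 0.0549 to 0.0587). Stard4, a soluble sterol carrier, was lower at 96 and 192 h than at 24 h in both arms. Its values at 192 h were 72.2 in the SETD5 arm and 209 in the Empty arm, a difference of -1.35. Other probe sets of Stard4, tested singly, gave -0.95 and -0.98 in the 192 h test and were not called.

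Abcg1 and Nr1h3 did not pass the filter. Abcg1, another export pump, gave 5.0, 10.1, 10.2, 20.2, 22.8, 21.5 and 31.3 in the SETD5 arm, against 16.9, 16.7, 11.3, 26.4, 16.9, 43.6 and 93.9 in the Empty arm, and reached 50 on 1 array only, Empty at 192 h. Nr1h3, which encodes liver X receptor alpha, gave 13.6, 11.4, 11.9, 11.4, 7.7, 18.5 and 29.2 in the SETD5 arm, against 18.3, 5.3, 8.9, 13.1, 25.4, 70.3 and 123 in the Empty arm. It reached 50 on 2 Empty arrays, at 96 and 192 h, and on no SETD5 array. Both genes were highest in the Empty arm at 192 h, at levels where the fold depends on the offset.

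Over the late hours together (36, 48, 96 and 192 h), 3 of the 25 genes were called lower with SETD5 and none higher, against 4.56% and 7.43% of all tested genes. They were Scarb1 at -1.16 ± 0.21 (4 of 4 hours lower, adjusted p = 0.0115), Srebf1 at -0.73 ± 0.13 (4 of 4 hours lower, adjusted p = 0.0106) and Lss at -0.87 ± 0.24 (4 of 4 hours lower, adjusted p = 0.0474). Without the 192 h pair 2 genes remained past the threshold, Scarb1 at -0.85 (adjusted p = 0.0136) and Srebf1 at -0.60 (adjusted p = 0.0246), and without the 96 h pair, or without pairing the arrays by hour, none did. The Lss call was lost when any hour other than 36 h was left out (adjusted p = 0.0703 to 0.165). With 48, 96 and 192 h as the late window 9 genes were called lower, against 9.23% of all tested genes. With 96 and 192 h alone as the late window 20 were called lower, against 11.4% of all tested genes. Fdft1, Hsd17b7, Ebp, Dhcr7 and Insig2 had late differences that changed sign without 192 h, the new values lying between 0.01 and 0.23.

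Over the early hours (0, 12 and 24 h) limma called none of the 25 genes, against 0.0% of all tested genes called lower and 0.023% higher. Over all 7 hours none was called, against 0.887% of all tested genes called lower and 2.73% higher. Srebf1 came nearest, at -0.51 ± 0.12 (6 of 7 hours lower, adjusted p = 0.0503). For late minus early none was called, against 0.0115% of all tested genes in each direction. With 96 and 192 h alone as the late window, 15 genes were called lower, against 6.19% of all tested genes.

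Within the Empty arm, 14 of 25 genes were over 2-fold higher at 192 h than at 0 h and none was over 2-fold lower, against 6.61% and 6.67% of all tested genes. Within the SETD5 arm 1 gene, Abca1, was over 2-fold higher and 4 were over 2-fold lower, against 1.61% and 2.03% of all tested genes. The Empty array at 192 h was higher than all 13 other arrays for 17 of the 25 genes, against 15.3% of all tested genes. The 8 exceptions were Srebf1, Srebf2, Scap, Insig2, Cyp51, Lbr, Hsd17b7 and Stard4. From 96 h to 192 h 12 genes were over 2-fold higher in the Empty arm, against 2.74% of all tested genes, and none was in the SETD5 arm, against 1.28%. None was over 2-fold lower between these hours in the SETD5 arm, against 1.14%, or in the Empty arm, against 2.89%. With hours as the only replicates of a window, late minus early hours gave no called gene in either arm by limma. Of all tested genes, 0.115% were called lower and 0.0691% higher in the SETD5 arm, and 1.22% lower and 1.82% higher in the Empty arm.

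For the course in time, the later hours were each set against 0 h with the arm as a block, which gives a change averaged over the arms and not a test of whether they shared it. At 48 h, for example, Srebf1 was above its value at 0 h by 1.05 in the SETD5 arm and 1.81 in the Empty arm. At 12 h, 4 genes rose, against 19.9% of all tested genes, and 2 fell, against 27.9%. Those that rose were Pmvk at 1.69 ± 0.52 (adjusted p = 0.0217), Abca1 at 1.39 ± 0.46 (adjusted p = 0.0287), Hsd17b7 at 1.11 ± 0.37 (adjusted p = 0.0316) and Lbr at 0.88 ± 0.11 (adjusted p = 0.000166). Hmgcs1 fell by 1.02 ± 0.30 (adjusted p = 0.0178) and Insig2 by 0.45 ± 0.14 (adjusted p = 0.0221). At 24 h Lbr reached 1.38 ± 0.11 (adjusted p = 1.6e-05), and Srebf1 and Abca1 rose with it, while none fell, against 16.4% and 21.9% of all tested genes. The counts that fell rested on the 192 h pair, without which 11 genes fell at 12 h, against 31.8% of all tested genes, and 12 at 24 h, against 26.5%. Pmvk and Hsd17b7 had the highest value of their first 48 h at 12 h in both arms, while Fdft1, Fdps and Msmo1 were below their values at 0 h in both arms at that time.

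At 36 h Lbr, Srebf1 and Abca1 rose and Ebp and Sc5d fell, against 12.4% and 17.0% of all tested genes. Srebf1 was at 1.61 ± 0.23 (adjusted p = 0.000798) and Abca1 at 1.97 ± 0.46 (adjusted p = 0.00998). At 48 h the same 3 genes rose, against 14.4% of all tested genes, and 5 fell, against 19.9%. Those that fell were Fdft1 at -1.61 ± 0.53 (adjusted p = 0.0398), Msmo1 at -1.34 ± 0.46 (adjusted p = 0.0474), Ebp at -1.19 ± 0.19 (adjusted p = 0.00141), Sc5d at -1.12 ± 0.31 (adjusted p = 0.0187) and Srebf2 at -0.50 ± 0.16 (adjusted p = 0.0388). Without the 192 h pair 10 genes fell at 36 h, against 21.2% of all tested genes, and 14 at 48 h, against 24.1%. At 96 h Srebf1 and Abca1 rose and none fell, against 6.12% and 9.53% of all tested genes, and without the 192 h pair 8 fell, against 15.3%. At 192 h Abca1, Scarb1 and Srebf1 rose and Lbr and Srebf2 fell, against 7.3% and 12.3% of all tested genes, and the arms were over 2-fold apart at that hour for the 3 that rose. When arrays were scaled to a common median instead, the median change of all tested genes against 0 h was 0.14, 0.19, 0.11 and 0.16 at 12, 24, 36 and 48 h, where the authors' scaling gave -0.06, -0.05, -0.04 and -0.03.

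Genes next to the pathway behaved unequally, and their counts stand beside the 4.56% lower and 7.43% higher of all tested genes over the late hours and the 4.32% lower in the 192 h test. Among SREBP targets of fatty acid synthesis, 3 of 10 tested genes were called lower and 1 higher over the late hours, and 5 of 10 were called lower in the 192 h test. Fasn, the fatty acid synthase, had 446 in the SETD5 arm and 2751 in the Empty arm at 192 h, and its late difference was -1.27 ± 0.32 (adjusted p = 0.0337). Scd1, a desaturase, was at -0.97 ± 0.26 (adjusted p = 0.0439) and Me1, malic enzyme, at -0.95 ± 0.27 (adjusted p = 0.0491) over the late hours. Elovl6, an elongase of fatty acids, was the 1 called higher. Of 10 tested genes for SREBP processing and its partner factors, none was called in either test, and the largest late differences were 0.26 ± 0.08 for Mbtps1, the SREBP protease, -0.18 ± 0.10 for Nfyb and -0.09 ± 0.08 for Erlin2.

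In the group of acetyl-CoA supply and isoprenoid side branches, 1 of 10 tested genes was called higher over the late hours, the methyltransferase gene Icmt, a share close to the 7.43% of all tested genes, and 2 were called lower in the 192 h test, Acss2 and Acly, which supply acetyl-CoA. Acss2 had 101 in the SETD5 arm and 513 in the Empty arm at 192 h. Over the late hours the largest differences of this group were -0.59 ± 0.32 for Acss2 (adjusted p = 0.236), -0.40 ± 0.16 for Acly and -0.40 ± 0.11 for Acat1. Of 12 tested genes of sterol trafficking and lipoprotein uptake, none was called in the 192 h test and 1 was called higher over the late hours, the receptor gene Lrp1 at 0.45 ± 0.10 (adjusted p = 0.0209), again a share close to that of all tested genes. Gramd1b, which moves sterol from the plasma membrane, was at -0.99 ± 0.29 (adjusted p = 0.0518) and Lipa, the lysosomal lipase, at 0.23 ± 0.08. Among 7 tested genes of oxysterols and the liver X receptors, Cyp7b1, an oxysterol hydroxylase, was called higher over the late hours at 1.23 ± 0.15 (adjusted p = 0.00344) and Rxra lower. Rxra and Rxrb, both in this group, encode partners of the liver X receptors and are not counted here as their targets. Lpcat3, a phospholipid acyltransferase, was at -0.65 ± 0.20 and Nceh1 at 0.49 ± 0.20. In the 192 h test 1 of the 7 was called lower, Lpcat3 at -1.39 ± 0.22 (adjusted p = 0.00954), and none higher.

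Fat cell markers were lower with SETD5 too, but from an earlier hour. From 96 h to 192 h their median change was 1.10 in the SETD5 arm and 0.83 in the Empty arm. For the 25 cholesterol genes it was -0.05 in the SETD5 arm and 0.91 in the Empty arm. All 8 tested fat cell markers were lower with SETD5 at 36, 48, 96 and 192 h, with medians of -0.62, -1.57, -1.58 and -1.87, and 7 of 8 were called lower over the late hours. At 48 h the median of the 25 cholesterol genes was -0.05. Of the 8 markers, 7 were over 2-fold lower with SETD5 at 96 h and 5 at 192 h. The shares of all tested genes were 1.67% and 4.52%. In the 192 h test 1 of the 8 was called lower, against 4.32% of all tested genes. Within the SETD5 arm the markers' median change from 48 h to 192 h was 2.91, and that of the 25 cholesterol genes was 0.0. The summed intensity of the fat cell markers lay between 1519 and 20510 in the SETD5 arm and between 1489 and 38220 in the Empty arm, each highest at 192 h, and no marker of the 8 was below 50 on all arrays. The 8 fibroblast and preadipocyte markers had a median difference of 0.44 at 192 h, with summed intensities of 18860 to 25400 in the SETD5 arm and 19560 to 23050 in the Empty arm. The part of these markers in the cholesterol genes' differences was not tested, and in bulk RNA fewer fat cells and less RNA per fat cell cannot be told apart.

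**Figure D4:**
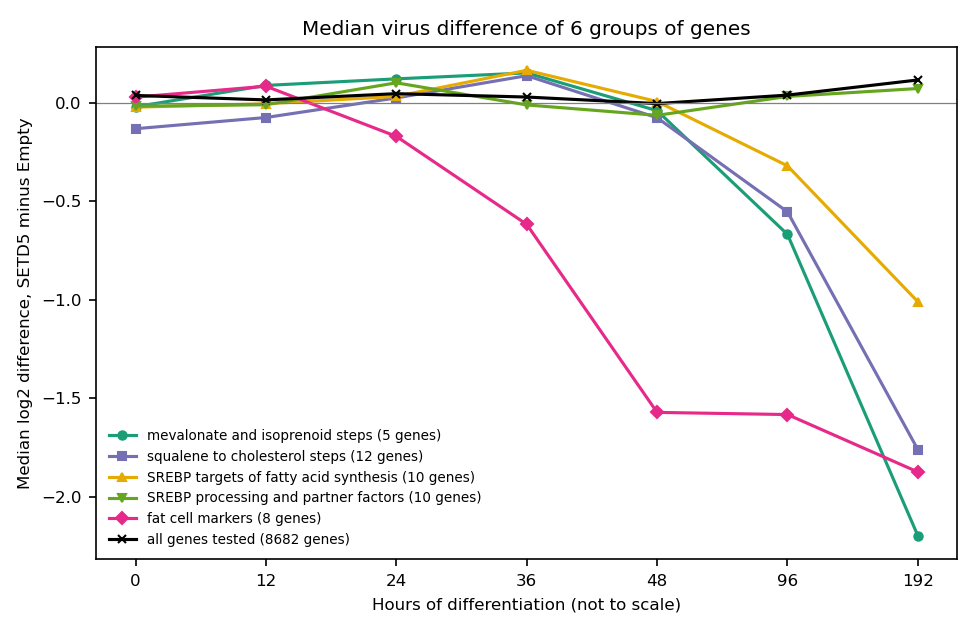
Median log2 difference, SETD5 minus Empty virus (vertical axis), of 6 groups of genes at the 7 hours (horizontal axis, in order and not to scale), each point being the median over the tested genes of a group in 1 pair of arrays. Fat cell markers reach -1.57 at 48 h, when the 5 mevalonate and 12 squalene to cholesterol genes are at -0.04 and -0.07, and these lie at -2.20 and -1.76 at 192 h while SREBP processing factors are at 0.07.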

How the data were processed

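The deposited values were linear intensities, 1 per probe set and array, which the authors made as an average difference with the GeneChip Analysis Suite and scaled to a common trimmed mean (99.998 to 100.002 after trimming 2% at each end). The sources used here give no scaling target and no filter, and detection calls were not used here. Of 45100 probe sets, 64 were controls, 34944 had 1 gene symbol in the platform annotation, 932 several and 9160 none. Arms and hours came from the labels. The 14 intensities per gene, plus 16, were taken to log2 and fitted in R 4.3.3 by limma 3.58.1, with two-sided moderated tests from lmFit and eBayes and Benjamini-Hochberg adjustment over 8682 genes. Arm differences had hour as a block (6 residual degrees of freedom over all hours, 5 for the late, early and 192 h tests), and hours against 0 h had the arm as a block (6). The number of arrays limits the precision, p-values measure only the spread between hours, and nothing tells whether hours were separate cultures. The same hour pairs the arms because both were treated alike at it, and the labels number no replicates. The late and early fits were tried on simulated data with an effect in all SETD5 arrays from 36 h on. The 192 h test was not tried in this way.

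All 31 genes were named where they have a probe set. Values array by array were given for Srebf1, Srebf2, Insig1, Insig2, Lss, Abca1, Abcg1, Nr1h3 and the 8 tested genes with the largest differences at 192 h. Lbr was added beside Tm7sf2 after its values were seen. From each neighbouring group the 3 with the largest late differences were named. Genes named as the only ones of a group that were called were chosen after their values were seen. The genes, lists, windows and rules were chosen with earlier results of these data known. Promoter windows came from RefSeq (GRCm38.p6). Alternatives were quantile normalization, a common median, offsets of 4 and 64, no filter, a filter at 100, every probe set on its own, an intensity trend with robust variances, no block, other late windows and leaving out each hour.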

Additional observations from a re-analysis of the deposited data

Results flagged for a closer look

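In the Empty arm, 14 genes had their highest intensity at 192 h, farther above the nearest other hour than Dixon's limit for 7 values allows. The 192 h intensities were 1333.7 for Insig1, 110.7 for Mvk, 108.8 for Mvd, 1658.7 for Idi1, 1351.1 for Fdps, 2080.5 for Fdft1, 1005.9 for Sqle, 337.4 for Lss, 539.5 for Tm7sf2, 2312.1 for Msmo1, 865.6 for Nsdhl, 163.5 for Dhcr7, 394.1 for Scarb1 and 93.9 for Abcg1. Of these, 12 were among the 25 tested genes, against 3.46% of all tested genes. In the SETD5 arm 6 genes stood apart in the same way at 0 h, with 1705.9 for Hmgcs1, 59.4 for Mvk, 533.3 for Fdps, 138.9 for Lss, 892.6 for Msmo1 and 342.9 for Nsdhl, against 0.737% of all tested genes. Pmvk, 1 of the 25 tested genes, stood apart in the SETD5 arm at 12 h, with 380.5, a share close to the 3.59% of all tested genes. Chance picks out about 1 in 20 groups of replicates in this way, and the 7 values are hours of a time course and not replicates.

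The arm difference at 192 h differed from that of the other 6 hours by limma's test of that difference in 18 genes, all in the same direction, and in 17 without Mvk, which passed the filter through the Empty arm only. The log2 values were -2.60 for Tm7sf2, -2.36 for Fdft1, -2.32 for Fdps, -2.29 for Pmvk, -2.24 for Insig1, -2.07 for Idi1, -2.07 for Msmo1, -1.81 for Sqle, -1.78 for Abca1, -1.78 for Nsdhl, -1.59 for Scarb1, -1.59 for Hsd17b7, -1.54 for Lss, -1.42 for Mvk, -1.39 for Sc5d, -1.30 for Hmgcs1, -1.22 for Stard4 and -0.80 for Ebp.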

How the results depend on the processing

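The 192 h array of each arm is 1 array, and the count of 18 genes called lower at 192 h ranged between 14 and 21 when another hour was left out. Over the late hours the count of 3 lower genes ranged between 0 and 9, over all hours between 0 and 1, and for late minus early between 0 and 1. Shares of all tested genes are not given for these ranges, which show only whether calls among the listed genes moved. With 96 and 192 h as the late window, 20 genes were called lower over the late hours and 15 for late minus early. The shares of all tested genes were 11.4% and 6.19%. With 48, 96 and 192 h these counts were 9 and 1, against 9.23% and 0.622%. Without the replicate block, which pairs arrays of the same hour, 0 genes were called lower at the late hours and 0 at 192 h, and of all 8682 genes 1 was called, higher at the late hours. Over all hours 1 gene was called lower with every probe set on its own and 1 with the intensity trend, for which shares are not given either.

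Late differences that turned positive without 192 h were 0.0178 for Fdft1, 0.0216 for Hsd17b7, 0.026 for Ebp, 0.228 for Dhcr7 and 0.0081 for Insig2, and that of Insig2 was 0.0305 without 96 h. The cause was not tested.

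Against 0 h, counts of genes called lower ranged between 2 and 11 at 12 h, 0 and 12 at 24 h, 1 and 10 at 36 h, 2 and 14 at 48 h, 0 and 8 at 96 h and 2 and 2 at 192 h when an hour was left out, and of genes called higher between 4 and 4, 3 and 4, 3 and 4, 3 and 4, 2 and 2, and 3 and 3. The largest counts lower at 12, 24, 36, 48 and 96 h came without the 192 h pair. The shares of all tested genes were then 31.8%, 26.5%, 21.2%, 24.1% and 15.3%. Shares are not given for the settings that follow, so their counts show only whether calls among the listed genes moved. With a common median 1 gene was lower at 12 h, 1 at 36 h and 3 at 48 h, and 5 were higher at 48 h. With quantile normalization 3 were lower at 24 h and 1 at 36 h. With an offset of 64, 1 was lower at 24 h and 1 at 36 h, with an offset of 4, 1 at 36 h, with every probe set on its own 1 at 36 h, and with the intensity trend 1 at 24 h. Without the filter 2 were higher at 12 h, 1 lower at 36 h, 2 lower at 48 h and 1 higher at 96 h. With no block for the arm 1 was lower at 36 h, 2 lower at 48 h, 1 higher at 96 h and 1 higher at 192 h. Late minus early within the Empty arm gave between 0 and 1 gene called higher when an hour was left out.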
